A study of Mus musculus with 6 samples.

Results

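The prolactin gene PRL and 6 genes of the cells that make it, DRD2, ESR1, PRLR, ANGPT1, NRG1 and PTPRZ1, were examined in bulk RNA-seq of the mouse pituitary. The members were the rows of the deposited count table that carry one of these symbols, 7 of 16736 rows, and all 7 passed the filter on low counts. The table names genes by upper-case symbols in human style, so that mouse Prl stands as PRL and mouse growth hormone as GH1. Both groups consisted of male mice whose pituitaries were taken after 16 h of fasting and 4 h of feeding, and they differed in a treatment labelled RD (3 libraries) or HFD (3 libraries). The labels do not spell out these abbreviations, and strain, age and the length of the treatment are not stated in the labels. Nothing in the labels says that the libraries of a group came from separate animals, so the p-values speak for the spread of these libraries only, and that spread may be technical. By its title the series concerns obesity and the unfolded protein response. The listed rows held 14185372 to 18111345 counts per library. The 7 hormone subunit genes of the gland were all detected, at 8.47% to 9.30% of counts in RD and 5.93% to 6.68% in HFD.

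Lactotrophs are the anterior pituitary cells that store and release prolactin, the hormone of milk production, which also acts on metabolism in both sexes. Unlike the other anterior cells they are held back by default: dopamine from the hypothalamus acts on the D2 receptor, which couples to inhibitory G proteins and lowers both secretion and transcription of prolactin. Estrogen, through its nuclear receptor ESR1, raises prolactin transcription, and the pituitary factor POU1F1 binds the prolactin promoter and is needed for the cells to form. Prolactin feeds back on its own release through PRLR, which signals by JAK2 and STAT5. ANGPT1 is a secreted ligand of the endothelial receptor TIE2, NRG1 a growth factor for ERBB receptors, and PTPRZ1 a receptor tyrosine phosphatase bound by pleiotrophin. These last 3 serve as marker genes of lactotrophs but are also made elsewhere, PTPRZ1 in glia and ANGPT1 in cells around vessels.

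The proximal promoter of PRL is shown because POU1F1 binds it. The transcripts of PRL and POU1F1 were both lower in HFD, while TSHB, a hormone gene of the thyrotrophs of the same lineage, was higher. A link between these changes was not tested. The sequence gives the 250 bases before the start of the gene on the plus strand of chromosome 13 (RefSeq, GRCm38.p6, chr13:27057320-27057569), with matches to the POU1F1 core TATNCAT on either strand in capitals.
PRL promoter: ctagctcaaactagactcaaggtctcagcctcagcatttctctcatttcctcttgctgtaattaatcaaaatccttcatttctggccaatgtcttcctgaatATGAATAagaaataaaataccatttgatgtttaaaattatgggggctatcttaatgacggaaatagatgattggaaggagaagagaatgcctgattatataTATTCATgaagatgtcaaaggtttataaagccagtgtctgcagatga
The matches lie at -148 to -142 (minus strand) and at -47 to -41 (plus strand) from the gene start, which counts the base before the start as -1. Of 32851 RefSeq promoter windows of the same length, 7.92% held at least 1 match to this core. A TATA box (TATAAA) lies at -24 to -19, with an overlapping match on the other strand. Neither the STAT motif TTCNNNGAA nor a full palindromic estrogen response element was found in these letters; they were held by 7.02% and 0.0639% of all windows. None of the 7 windows found for DRD2, ESR1, PRLR and PTPRZ1 held the POU1F1 core, and no window was available for ANGPT1 and NRG1. These matches describe the letters and were not tested for binding.

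PRL was lower, ANGPT1 and NRG1 were higher in HFD than in RD pituitaries, and DRD2, ESR1, PRLR and PTPRZ1 did not pass the threshold (edgeR's quasi-likelihood test, Benjamini-Hochberg adjustment over 13873 tested genes, adjusted p under 0.05, referred to as called). Thus 3 of 7 members were called, 2 higher and 1 lower, against 10.5% of all tested genes (5.87% higher, 4.61% lower). The members were chosen with earlier results of these data known, so that this share is a description. Their median log2 change was -0.03, against 0.00 (-0.0023) over all tested genes. For 4 of the 7, the 3 called genes and PTPRZ1, all values of one group lay above all of the other, as they did for 32.5% of all tested genes. Of all tested genes, 1453 were called, 56.0% of them higher in HFD, and 72.5% of 1546 when library size was the only scaling. Without 1 library the count over the table was 890 (RD replicate 2), 701 (HFD replicate 1), 490 (HFD replicate 2) or 431 (HFD replicate 3). The count of members was 1 without HFD replicate 2, where only ANGPT1 remained called. Without RD replicate 3 it was 4, with PTPRZ1 added.

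**Figure D1:**
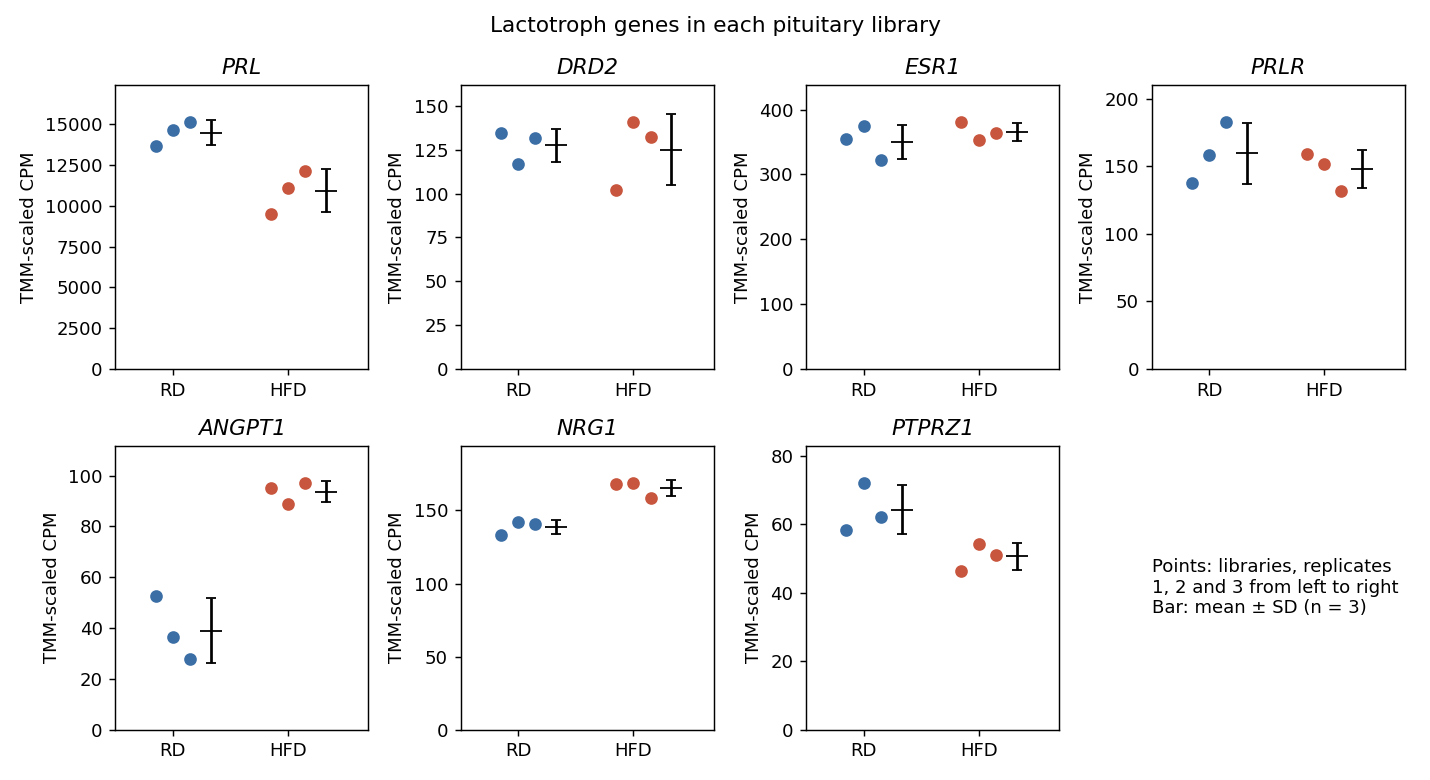
TMM-scaled CPM (counts scaled by library total and TMM factor) of the 7 genes, 1 panel each with its own axis from 0; points are libraries and bars the mean ± SD of 3. All HFD points lie below all RD points for PRL (at most 12137 against at least 13653 CPM) and PTPRZ1, and above them for ANGPT1 and NRG1, while the groups overlap for DRD2, ESR1 and PRLR.

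PRL (chromosome 13 of mm10, 27057570 to 27065205, plus strand, 5 exon blocks in GENCODE M21) was the third most abundant of all tested genes by mean CPM. It stood at 13653, 14645 and 15147 CPM in RD replicates 1, 2 and 3, and at 9525, 11094 and 12137 CPM in HFD replicates 1, 2 and 3. The HFD libraries were all below the RD libraries, and HFD replicate 1 was the lowest. The log2 change was -0.41 ± 0.08 (SE, adjusted p = 0.013), a fall to 0.754 of the RD level. The change ranged from -0.49 to -0.32 over 16 other settings. It was called in 15 of them and missed the threshold without HFD replicate 2 (adjusted p = 0.0556). In bulk tissue, fewer lactotrophs and less prolactin RNA per lactotroph cannot be told apart.

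Shares of raw counts, which do not use the scaling factors, gave the same order of the groups. PRL took 1.36%, 1.43% and 1.45% of counts in the RD libraries and 0.968%, 1.14% and 1.25% in the HFD libraries. The mean share was 1.41% ± 0.0468 for RD against 1.12% ± 0.142 for HFD (SD, n = 3 each; exact two-sided permutation test, p = 0.1, the smallest that 3 against 3 allows). GH1, the hormone of the neighbouring somatotroph lineage, fell as well, with a log2 change of -0.83 ± 0.07. There were 23.2, 20.5 and 21.2 PRL counts per 100 GH1 counts in RD and 24.1, 30.3 and 32.0 in HFD (exact two-sided permutation test, p = 0.1, the smallest possible). The groups did not overlap, but HFD replicate 1 lay close to RD replicate 1. Of the counts of all 7 hormone subunit genes, PRL made up 15.8% ± 0.335 under RD and 17.4% ± 1.22 under HFD (SD, n = 3 each). The direction for PRL thus differs between denominators: it is lower against all counts and higher against the summed hormone counts. That sum was lower in every HFD library, and GH1 was its largest part (mean 67336 CPM in RD, 38005 CPM in HFD). The share in the hormone counts therefore largely repeats the comparison with GH1. Of the other hormone genes, POMC (not called), CGA and TSHB had higher means in HFD, and FSHB and LHB lower means. PRL against the hormone genes without GH1 was not computed.

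**Figure D2:**
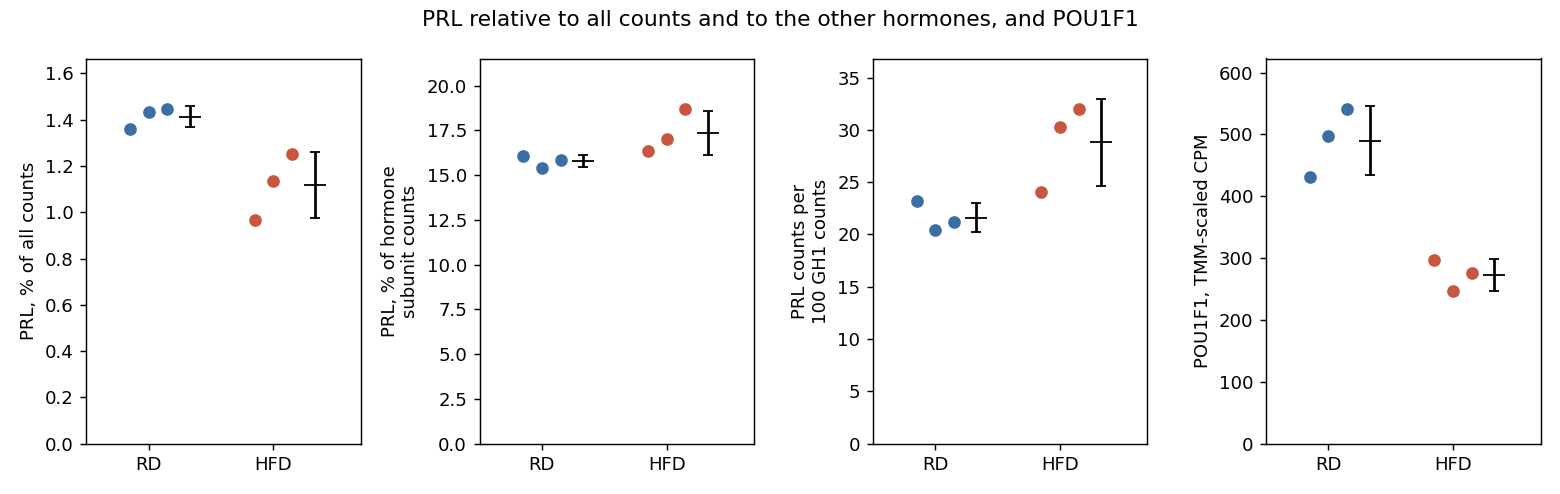
PRL as a percentage of all counts, as a percentage of the counts of 7 hormone subunit genes and per 100 GH1 counts, and the TMM-scaled CPM of POU1F1; points are libraries, bars the mean ± SD of 3, and axes start at 0. HFD lies below RD in the first and last panels (PRL 0.968% to 1.25% against 1.36% to 1.45%) and above it in the others.

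The genes of the dopamine D2, estrogen and prolactin receptors did not pass the threshold. DRD2, the dopamine D2 receptor gene (chromosome 9, 49340627 to 49408177), stood at 134, 117 and 131 CPM in the RD libraries, and at 102, 141 and 132 CPM in the HFD libraries. The groups overlapped, with both the lowest and the highest value in HFD, and the log2 change was -0.03 ± 0.11 (adjusted p = 0.91). Its sign turned with upper-quartile scaling (0.0056), with library size only (0.04) and without HFD replicate 1 (0.10) or RD replicate 1 (0.0026). ESR1, the estrogen receptor alpha gene (chromosome 10, 4611593 to 5005614), was at 354, 375 and 322 CPM in RD and 381, 354 and 364 CPM in HFD. Its values lay within a narrow band in all 6 libraries, with a log2 change of 0.06 ± 0.07 (adjusted p = 0.61). PRLR, the prolactin receptor gene (chromosome 15, 10177238 to 10349180), was at 138, 159 and 183 CPM in RD and 159, 152 and 132 CPM in HFD. The groups overlapped for PRLR, with the highest value in RD and the lowest in HFD, and the log2 change was -0.11 ± 0.11 (adjusted p = 0.55). The protein-coding gene Gm21973 shares 203 exon bases with Prlr on the same strand. The table has no row of that name, so its reads could be counted as PRLR. DRD2, ESR1 and PRLR were not called in any of the 16 other settings. Whether the change of PRL differs from that of each receptor was not tested.

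ANGPT1 (chromosome 15, 42424723 to 42676977, minus strand) had the largest change of the 7. It stood at 52.7, 36.5 and 27.7 CPM in RD and at 95.1, 88.9 and 97.2 CPM in HFD. The lowest HFD library was above the highest RD library, and the spread was wider in RD. The log2 change was 1.27 ± 0.19 (adjusted p = 0.0043), a rise of 2.41-fold, and it was called in all 16 other settings, with values from 1.06 without RD replicate 3 to 1.54 without RD replicate 1. The antisense gene Gm17473 shares 737 exon bases with Angpt1 in the annotation. The table has no row of that name, and whether counting used strand is not known, so reads of the antisense gene could be counted as ANGPT1.

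NRG1 (chromosome 8, 31814551 to 32884029, minus strand), which encodes neuregulin 1, stood at 133, 142 and 141 CPM in RD and 168, 169 and 159 CPM in HFD. The groups did not overlap and each was tight, with a rise of 1.19-fold and a log2 change of 0.25 ± 0.06 (adjusted p = 0.0335). The call held without RD replicate 3 and was lost without any of the other 5 libraries, with adjusted p up to 0.137. The antisense transcript Gm26578 shares 482 exon bases with Nrg1.

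PTPRZ1 (chromosome 6, 22875502 to 23052916) stood at 58.3, 72.1 and 62.2 CPM in RD and 46.5, 54.3 and 51.0 CPM in HFD. Every HFD value was below every RD value, but the log2 change of -0.34 ± 0.10 did not pass (adjusted p = 0.0592). In 3 of 16 alternatives it was called: DESeq2 (0.0272), without RD replicate 1 (0.0387) and without RD replicate 3 (0.0484). Without HFD replicate 1 the adjusted p was 0.172, the highest of all settings.

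**Figure D3:**
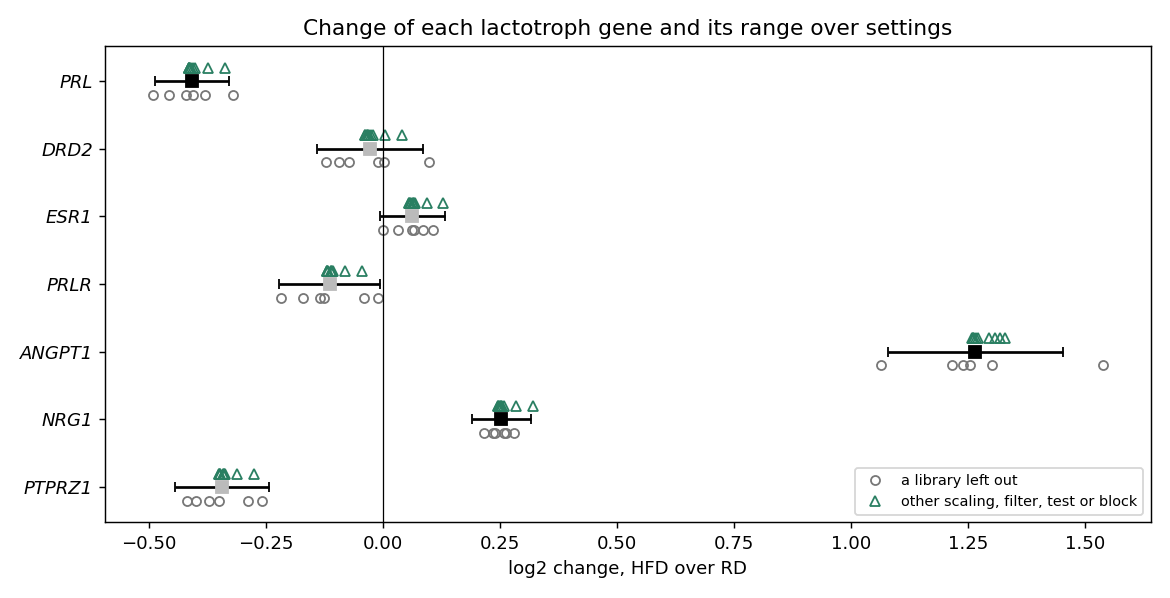
Log2 change (HFD over RD) of each gene; squares with bars are the value ± SE, black where called and grey where not, circles leave out 1 library and triangles use another scaling, filter, test or the replicate block. ANGPT1 lies between 1.06 and 1.54 in all settings, PRL between -0.49 and -0.32, and DRD2 falls on both sides of 0.

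Compared per kilobase of merged exons, the levels of the 7 genes spanned a wide range. In RD, PRL was at 10285 ± 540 CPM per kb, followed by DRD2 (50.04 ± 3.71), ESR1 (25.7 ± 1.93), NRG1 (13.4 ± 0.467), PRLR (10.4 ± 1.47), ANGPT1 (7.49 ± 2.44) and PTPRZ1 (4.51 ± 0.50; SD, n = 3 each). Of neighbours in this order only PRLR and ANGPT1 overlapped, at 8.99 to 11.9 and 5.33 to 10.1 CPM per kb. In HFD, ANGPT1 (18.01 ± 0.829) stood above NRG1 (16.0 ± 0.540) and PRLR (9.64 ± 0.919), with no overlap between neighbours. PRL remained first (7755 ± 934), then DRD2 (49.1 ± 8.02) and ESR1 (26.8 ± 1.01), and PTPRZ1 remained last (3.55 ± 0.276). Merged exons count every annotated isoform, which lowers the value of genes with long alternative exons such as ESR1 (13661 bases) and PRLR (15339 bases) against PRL (1408 bases).

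Genes with a pattern most like that of each member were taken as those with the smallest mean absolute difference in log2 level over the 6 libraries, after centring each gene on its own mean, among 12807 genes. For PRL these included the prohibitin gene PHB (0.0295) and the glycosyltransferase gene B3GNT7 (0.0402). For ANGPT1 they were RGS8 (0.0745), the cadherin gene CDH12 (0.0751) and the secretin receptor gene SCTR (0.10). ANGPT1 had few close neighbours: 2 genes lay within 0.1 of it, against 232 for PRL, 409 for PTPRZ1 and 1396 for NRG1. The nearest to PTPRZ1 were the actin-depolymerizing factor gene DSTN, LIN37 and the p38 kinase gene MAPK11 (0.0356 to 0.0386), and to NRG1 RASGRP3, FAAP100 and ZFP1 (0.0195 to 0.0238). DRD2 (RPS27L, YEATS4, HINT1), ESR1 (among them OSGEP and ZFPM2) and PRLR (ANKRD17, RABEPK, VCPIP1), whose group means differed little, had nearest genes at 0.0144 to 0.0359. For members that differ between the groups, likeness over 6 libraries in 2 groups mainly follows that difference. For DRD2, ESR1 and PRLR it mainly follows the spread within the groups.

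Beyond the members, 161 tested genes of 9 lists of lactotroph regulation were read from the same fit, and 18.6% were called, 20 higher and 10 lower, against 10.5% of all genes. Of these 30 genes, 12 stayed called whichever library was omitted. These lists, like the members, were chosen with earlier results of these data known, so that their shares here and below are descriptions. Among 12 transcription factors of the lineage 3 rose and 1 fell (median log2 change 0.14). POU1F1, the factor named above, stood at 431, 498 and 542 CPM in RD and 298, 246 and 276 CPM in HFD. The HFD libraries were all far below RD, with a log2 change of -0.84 ± 0.10 (adjusted p = 0.0014) that held with any library left out. LHX3 (0.31 ± 0.08) and ETS1 (0.31 ± 0.07) were among those that rose. LHX3 was not called without RD replicate 2 or any HFD library, and ETS1 was called without RD replicate 3 only.

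Of 20 tested receptors for releasing and inhibiting signals 2 rose and 1 fell, 15% against 10.5% (median -0.04). ADCYAP1R1, the receptor of the hypothalamic peptide PACAP, rose from 48.7 ± 5.06 to 73.6 ± 7.82 CPM (SD, n = 3 each; log2 change 0.60 ± 0.11), and narrowly missed the threshold without HFD replicate 3 (adjusted p = 0.0514). TRHR, the receptor of thyrotropin-releasing hormone, a known stimulus of prolactin release, rose by 0.53 ± 0.14 but, with libraries omitted in turn, was called only without RD replicate 2. PRLHR, the receptor of prolactin-releasing peptide, fell from 2.44 ± 0.486 to 0.839 ± 0.368 CPM, and was called without RD replicate 1 or RD replicate 3 only (adjusted p up to 0.10). The somatostatin receptor gene SSTR2 did not pass (adjusted p = 0.0732), with 5.17 ± 3.34 CPM in RD against 2.07 ± 0.249 CPM in HFD.

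The transduction list of the D2 receptor, with G proteins, adenylyl cyclases, potassium channels and regulators, held 4 higher and 3 lower among 28 tested genes (25.0%, median -0.06). GNAI1, an inhibitory G protein alpha subunit, fell from 44.3 ± 4.25 to 18.2 ± 5.66 CPM (SD, n = 3 each), a log2 change of -1.29 ± 0.20. RGS8, which speeds the switching-off of these G proteins, rose from 25.8 ± 7.90 to 56.3 ± 2.99 CPM, while its relatives RGS9 (-0.46 ± 0.09) and RGS7 (-0.51 ± 0.13) fell. The more abundant alpha subunit gene GNAO1 did not pass, with 423 ± 9.36 CPM in RD against 454 ± 21.5 CPM in HFD. The inhibitory subunit genes GNAI2 (186 ± 16.0 against 190 ± 5.58 CPM) and GNAI3 (107 ± 10.7 against 100 ± 1.84 CPM) were also more abundant than GNAI1 and did not pass. Among channel subunit genes, KCNJ3 (115 ± 36.3 CPM in RD, 82.8 ± 8.85 CPM in HFD) and KCNJ6 (98.2 ± 14.1 and 123 ± 5.55 CPM) did not pass. The less abundant KCNJ9 rose from 3.59 ± 0.880 to 8.92 ± 1.21 CPM (1.31 ± 0.22). KCNJ5, also called higher, stood at 0.222 ± 0.0882 CPM in RD, near the 0.166 to 0.211 CPM that 3 counts make, and at 1.21 ± 0.159 CPM in HFD, and it was not called with halved counts, by DESeq2 or without HFD replicate 1 or 3. GNAZ rose by 0.32 ± 0.09. The calls of GNAI1, RGS8 and KCNJ9 held with any library left out. RGS9 was lost without HFD replicate 2 or 3, RGS7 without RD replicate 2 or any HFD library, and GNAZ was called without RD replicate 1 only (adjusted p up to 0.168).

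Of 25 estrogen receptors, coregulators and targets 3 rose and 22 did not pass (12%, median -0.03). ESRRG, an orphan receptor related to ESR1 that does not bind estrogen, rose from 18.8 ± 2.06 to 40.1 ± 3.72 CPM (SD, n = 3 each; 1.10 ± 0.12), and MYB, a transcription factor gene that responds to estrogen in breast cells, from 6.92 ± 1.15 to 14.6 ± 1.60 CPM. GPER1, a membrane estrogen receptor, rose by 0.39 ± 0.10 and was called without RD replicate 1 only among the 6 fits (adjusted p up to 0.142), while both other calls held in all 6. The classical targets PGR (-0.12 ± 0.12) and GREB1 (0.01 ± 0.12) did not pass. TFF1 and CYP19A1 had 0 counts in every library.

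Among 20 genes of prolactin receptor signalling 2 rose and 1 fell (15%, median -0.05). CISH, a STAT5 target that damps cytokine receptors, rose from 58.4 ± 5.27 to 79.4 ± 6.37 CPM (SD, n = 3 each; 0.44 ± 0.09). PTPN1, a phosphatase that acts on JAK2, fell by 0.54 on the log2 scale (SE 0.12), and BTRC, part of the ubiquitin ligase that degrades PRLR, rose by 0.27 ± 0.06. STAT5A (0.37 ± 0.14) and STAT5B (0.25 ± 0.08) were higher in each HFD library than in any RD library but were not called (adjusted p = 0.12 and 0.0816). Groups without overlap, in either direction, were found for 32.5% of all tested genes. JAK2 (-0.16 ± 0.09) and SOCS2 (-0.05 ± 0.07) did not pass either. CISH was lost without HFD replicate 1 or 3, PTPN1 without HFD replicate 2 or 3, and BTRC in each fit but that without RD replicate 3 (adjusted p up to 0.115).

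The partners of ANGPT1, NRG1 and PTPRZ1 were read from 3 further lists. In the angiopoietin list 1 of 11 genes was called (9.09%): ANGPTL4, a lipase inhibitor that does not bind TIE2, rose from 4.16 ± 1.34 to 13.7 ± 1.95 CPM (SD, n = 3 each; 1.71 ± 0.23). The receptor genes TEK, which encodes TIE2 (-0.13 ± 0.12), and TIE1 (-0.05 ± 0.10) did not pass. ANGPT2 stands on 2 rows and was not counted. Of 15 neuregulin and ERBB genes 2 rose and 13 did not pass (13.3%). EGFR rose from 54.9 ± 1.74 to 83.2 ± 8.64 CPM (0.60 ± 0.09), and ERRFI1, a feedback inhibitor of EGFR and its relatives, from 36.7 ± 5.57 to 75.2 ± 7.92 CPM (1.04 ± 0.12). The NRG1 receptor genes ERBB3 (0.11 ± 0.27) and ERBB4 (0.17 ± 0.12) and their partner ERBB2 (-0.02 ± 0.14) did not pass. The calls of ANGPTL4, EGFR and ERRFI1 held with any library left out.

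Of 21 PTPRZ1 ligands and relatives 3 rose and 2 fell (23.8%, median 0.09). CNTN1, a cell-surface binding partner of PTPRZ1, rose from 146 ± 12.7 to 233 ± 2.80 CPM (SD, n = 3 each; 0.67 ± 0.07), and ALK, a receptor kinase gene, from 37.9 ± 0.763 to 64.4 ± 2.39 CPM. The adhesion gene NRCAM rose by 0.33 ± 0.07. The phosphatase gene PTPRQ fell from 11.6 ± 2.90 to 1.05 ± 0.299 CPM. GIT1, a substrate of PTPRZ1, was called lower (-0.31 ± 0.09, adjusted p = 0.0498) but no longer when any library was omitted. The ligand gene PTN did not pass (-0.06 ± 0.10), with 103 ± 3.48 CPM in RD against 98.6 ± 13.8 CPM in HFD. CNTN1, ALK and PTPRQ were called in all 6 fits, and NRCAM in 4, with adjusted p up to 0.0844 when HFD replicate 1 or 3 was omitted. Of 10 genes of granule cargo and processing 2 fell and 8 did not pass (20%): VGF, a granule peptide precursor (-1.97 ± 0.34), lost without HFD replicate 3 (0.0549), and PAM, the peptide-amidating enzyme (-0.25 ± 0.06), which among the 6 fits was called without RD replicate 1 only, and was not called with upper-quartile scaling or library size only.

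**Figure D4:**
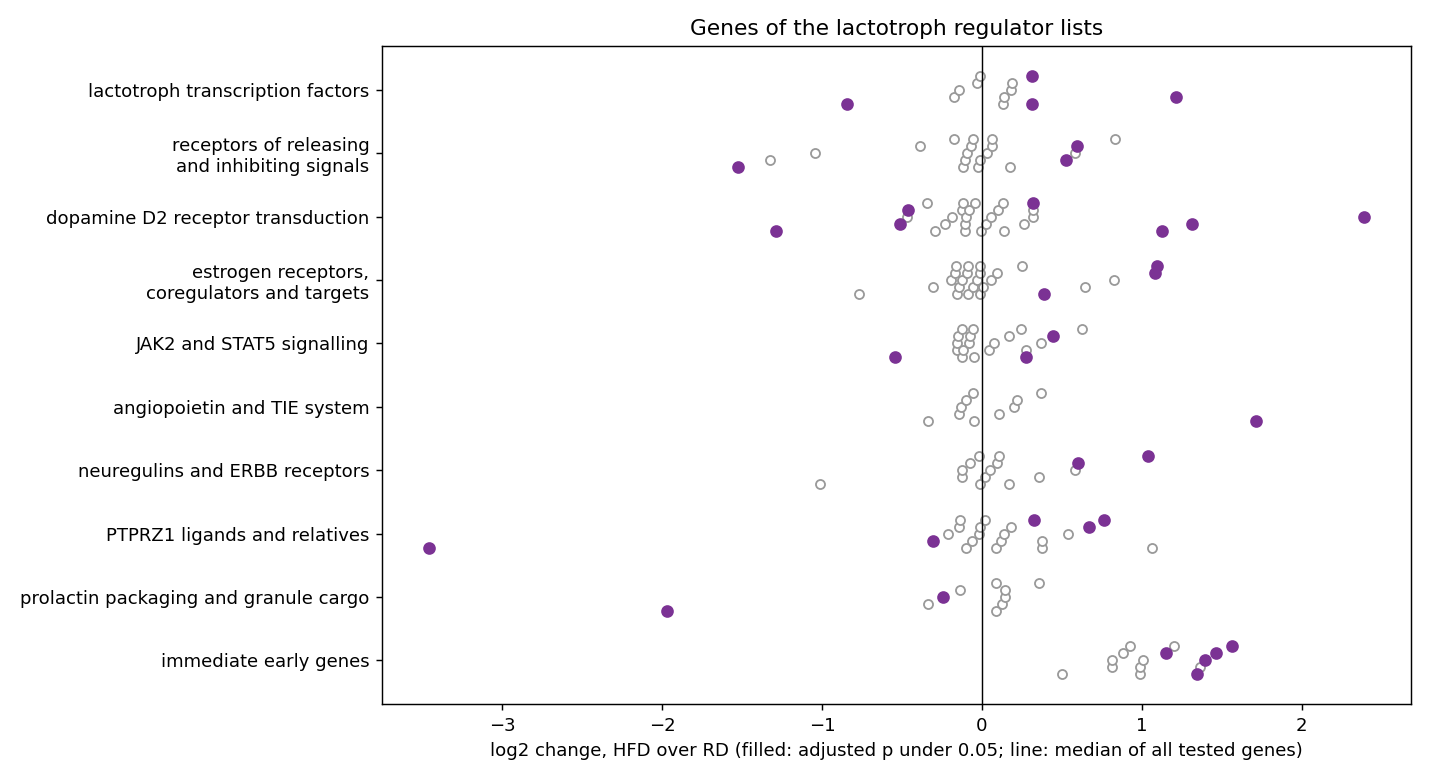
Log2 change (HFD over RD) of each tested gene in 9 regulator lists and a list of immediate early genes; filled points are called, open points not, and the line is the median of all tested genes. Of the 10 lists, 5 hold called genes in both directions and 5 in a single direction, with PTPRQ at -3.46 the lowest and KCNJ5 at 2.39 the highest.

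Markers of other cells of the gland moved in part with these results. Of all tested genes 10.5% were called. The share was 42.9% for somatotroph, 80.0% for thyrotroph, 83.3% for gonadotroph and 16.7% for corticotroph and melanotroph markers. It was 23.1% for the glial, 22.2% for the mural and fibroblast and 16.7% for the folliculostellate and stem cell markers. These short lists were also chosen with earlier results of these data known, so their shares are descriptions. Of 7 somatotroph markers 2 fell and 1 rose, and their summed level was 62026 to 75192 CPM in RD and 39628 to 42809 CPM in HFD, without overlap. Nearly all of that sum was GH1, and the other 6 markers overlapped, at 3125 to 3726 CPM in RD and 3058 to 3300 CPM in HFD. Of 5 thyrotroph markers 4 rose (2035 to 2298 CPM summed in RD, 2751 to 3083 in HFD). Among them TSHB rose from 139 ± 38.9 to 287 ± 6.64 CPM (SD, n = 3 each), a log2 change of 1.04 ± 0.17 that held with any library left out. Of 6 gonadotroph markers 2 rose and 3 fell (1469 to 1635 CPM in RD, 1195 to 1260 in HFD). These cells share the POU1F1 lineage (somatotrophs and thyrotrophs) or the gland with lactotrophs, and their part in the change of PRL was not tested. Markers of corticotrophs and melanotrophs, which also carry DRD2, overlapped in their sums (5922 to 10032 CPM in RD, 6147 to 14341 in HFD), with 1 of 6 called higher. Glial markers of the posterior lobe and the oligodendrocyte lineage, cells that can make PTPRZ1, held 3 higher among 13 tested of 15 (CSPG4 and MAG among them), with sums of 288 to 404 CPM in RD and 231 to 465 CPM in HFD that overlapped. Mural and fibroblast markers, cells that can make ANGPT1, held 1 higher (CSPG4) and 1 lower (COL1A2, -0.69 ± 0.10) of 9, with sums of 698 to 751 CPM in RD and 561 to 657 CPM in HFD. Without COL1A2, the most abundant of them, the sums overlapped, at 440.2 to 450.3 CPM in RD and 394 to 489 CPM in HFD. Their part in the change of ANGPT1 was not tested. Of 9 endothelial and 8 blood and myeloid markers 0 were called by edgeR, DESeq2 or limma-voom (3 and 0 at an unadjusted p under 0.05 in edgeR), with sums of 286 to 299.9 and 132 to 182 CPM in RD, and 306 to 327 and 139.85 to 188 CPM in HFD. Of 6 folliculostellate and stem cell markers 1 rose (ALDH1A2), with sums of 128 to 139 CPM in RD and 144 to 160.05 CPM in HFD. Without ALDH1A2, the most abundant of them, the sums overlapped, at 75.2 to 93.3 CPM in RD and 77.0 to 91.6 CPM in HFD. No marker in any of these lists was at 0 in every library, and the part of these cells in the changes of PTPRZ1, ANGPT1 and NRG1 was not tested.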

How the data were processed

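The authors deposited a table of raw counts per gene symbol for 6 libraries of poly(A)-selected pituitary RNA. Per the submitters' processing notes the build was mm10; the annotation, the aligner and the program that counted reads were not given in the sources used here. Of 16736 rows, 96.8% matched a GENCODE M21 symbol apart from case, and 43 symbols stood on 2 rows, which stayed out of the gene lists. Totals ranged from 14185372 to 18111345. Among counts of 1 to 10, 64.0% to 67.0% were even, against 48.9% to 50.5% above 200, so counts may hold both mates of a pair; counting intervals were therefore left out, and errors are SD or SE over libraries.

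The test was edgeR 4.0.16 under R 4.3.3 (quasi-likelihood test, two-sided; TMM factors; minimum count 10, minimum total 15; intercept and diet label), with Benjamini-Hochberg adjustment over 13873 genes and a threshold of 0.05. SE was taken as the size of the change over the root of its F statistic. Alternatives were other scalings, filters and thresholds, DESeq2 1.42.0, limma-voom (limma 3.58.1), halved counts, a replicate block and each library left out; the alternative for normalized values was not run, since the table holds counts. The single alternative denominator for the PRL share was the total without GH1.

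The members and the 19 further gene lists were chosen with earlier results of these data known. Named genes are the members, the called genes of each list (in cell marker lists up to 4) with others of the smallest p (up to 3), and the 3 genes most like each member among those whose mean log2 CPM reached 1. GNAO1, PGR, GREB1, JAK2, SOCS2, TEK, TIE1, ERBB2, ERBB3, ERBB4 and PTN were named for their roles after the values were seen. So were GNAI2, GNAI3, KCNJ3, POMC and LHB. Several genes this selection would include are left out of the text.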

Additional observations from a re-analysis of the deposited data

How the results depend on the processing

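The count of called genes over the table was 412 at a threshold of 0.01 and 2343 at 0.1, and ranged from 431 to 1523 with a library left out. The count of called members was 1 at a threshold of 0.01 and ranged from 1 to 4 with a library left out. With a library left out, log2 changes ranged from -0.49 to -0.32 for PRL, -0.12 to 0.10 for DRD2, 0.22 to 0.28 for NRG1 and -0.42 to -0.26 for PTPRZ1. DRD2 changed sign with upper-quartile factors (0.0056) and library size only (0.041), and PTPRZ1 was called by DESeq2 (-0.35); the cause was not tested. Of 112 values of the 7 members under the alternatives, 98 kept their sign and side of the threshold. Of 1603 values of 101 other named genes, 1410 did, 160 lost a call, 22 gained one and 11 changed sign. The difference in the PRL share ranged from -0.36 to -0.22 percentage points with a library left out and was -0.35 without GH1 in the total.

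Replicate numbers gave no pairing: deviations of same-numbered libraries correlated at -0.127, 0.0037 and -0.0972. With the replicate block 808 genes and 2 members were called, and NRG1 (log2 change 0.25) had an adjusted p of 0.0933; RD replicates 1 and 3 correlated best with an HFD library of another number. Among genes named for likeness to members with little difference between the groups, signs turned for HINT1 (0.035 with library size only), RPS27L (0.0058 with upper-quartile factors, 0.041 with library size only) and YEATS4 (0.0018 with library size only). With a library left out, log2 changes ranged from -0.086 to 0.061 for HINT1, -0.12 to 0.094 for RPS27L, -0.16 to 0.039 for YEATS4, -0.024 to 0.099 for OSGEP and -0.013 to 0.089 for ZFPM2. Low totals limit KCNJ5, PRLHR and MAG, which lie below 3 CPM.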

Other observations

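The angiotensin II receptor gene AGTR1, whose ligand stimulates prolactin release, stands on 2 rows of the table and was therefore kept out of the list counts. Its more abundant row was at 39.2, 34.4 and 31.0 CPM in RD and 66.5, 65.1 and 76.7 CPM in HFD. The groups did not overlap for this row, as for 32.5% of all tested genes, and the log2 change was 0.99 ± 0.11 (edgeR adjusted p = 0.0013). Which of the mouse receptor genes this row counts is uncertain, and it was singled out after its values were seen. The other row is not described here, so these values stand for this row only and not for the receptor as a whole.

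Of 15 immediate early genes, which respond within minutes to receptor stimulation and to tissue handling, 5 rose and 10 did not pass. Thus 33.3% were called, all higher, against 10.5% of all tested genes (5.87% higher). Their median log2 change was 1.01, against -0.0023 over all tested genes. EGR1 rose from 246 ± 145 to 729 ± 241 CPM (SD, n = 3 each), JUNB from 107 ± 61.4 to 296 ± 105 CPM, FOSL2 from 108 ± 23.7 to 240.5 ± 54.5 CPM, NR4A3 by 1.40 ± 0.37 and ATF3 by 1.34 ± 0.32. The call of FOSL2 held with any library left out. EGR1 was lost without HFD replicate 1 or 3, ATF3 also without RD replicate 2, and JUNB and NR4A3 also without RD replicate 2 or 3 (adjusted p up to 0.13), and neither JUNB nor NR4A3 was called by DESeq2. The list's summed level was 745 to 2424 CPM in RD and 2132 to 4448 CPM in HFD, with overlap. Its part in the changes of the lactotroph genes was not tested.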
